A study of Mus musculus with 6 samples.

Results

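Histone genes were followed in cultured mouse fibroblast-like synoviocytes, which line joints and make synovial fluid and matrix, that carried extra Epas1, the gene of the hypoxia-inducible transcription factor HIF-2α. The gene set was chosen by name alone: every gene whose probe set on the array carries 1 symbol beginning with H1f, H2a, H2b, H3c, H3f or H4c, together with Slbp, leaving out major histocompatibility genes and pseudogenes. These were 46 of the 22180 genes tested, and each was represented by its brightest probe set. They comprised 25 clustered genes (H1f1, H1f2, H1f3, H1f5 and the H2ac, H2bc and H4c genes), 20 variant genes and Slbp.

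The cells came from knee synovium of C57BL6 mice and were used between passages 4 and 8. One group (Mock, 3 arrays) received an empty adenovirus and the other (Ad-Epas1, 3 arrays) an adenovirus carrying Epas1, in both cases at a multiplicity of infection of 800 for 2 h, with 24 h of culture afterwards. All 6 arrays are therefore of virus-exposed cells, no uninfected cells are among them, and the promoter that drives Epas1 in the virus is not stated. The labels call the replicates biological without naming animals or cultures, so the p-values speak only of spread among these 6 samples, which may be partly technical.

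Histones package DNA into nucleosomes. The clustered, replication-dependent genes are transcribed mainly while DNA is copied, in S phase, and their messages end in a stem-loop in place of a poly(A) tail. SLBP, the stem-loop binding protein, binds that end and is needed for processing, export and translation. Variant histones are mostly encoded by single genes elsewhere in the genome, many are made in resting cells too, and others belong to the germ line.

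Values are log2 expression values, and a difference of 1 is a doubling. The groups were compared by limma, two-sided, and a gene is said to have risen or fallen only where the p adjusted over all 22180 genes was under 0.05. For scale, 95% of the 1394 receptor genes of smell and pheromone sensing, which these cells have no known use for, lay below 6.62, and a level under that is here called within the receptor range. The medians of the 6 arrays lay between 6.77 and 6.84. Epas1 itself rose from 8.63 ± 0.11 in Mock to 13.13 ± 0.02 in Ad-Epas1 (SD, n = 3 each), a 22.6-fold difference with an adjusted p of 4.6e-06.

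One array stood apart. The mean of 16 macrophage markers was between 11.1 and 11.4 on 5 arrays and 7.18 on Ad-Epas1 replicate 3, where 6 of the 16 lay within the receptor range. The labels report cultures of over 90% CD90+ and under 1% CD14+ cells. Despite that label, 0 of the 16 macrophage markers lay within the receptor range on any Mock array or on Ad-Epas1 replicates 1 and 2. Why the label and these levels differ was not tested. Of the 16, 2 fell, 0 rose and 14 did not pass, and 6 were lower without overlap, against 18.4% of all genes. The share that fell, 12.5%, was near the 9.75% of all genes. The complement genes C1qa (-2.05, adjusted p = 0.0089) and C1qc (-2.31, adjusted p = 0.049) fell, and C1qb differed by -2.46 (adjusted p = 0.20). All 3 were lower on every Ad-Epas1 array than on any Mock array, and without Ad-Epas1 replicate 3 their differences were -1.65, -1.51 and -0.95, each past the test. C1qc lost its call when any other single array was left out (highest adjusted p = 0.14). The mean of 12 fibroblast markers was 11.6 on each Mock array and between 11.1 and 11.5 on Ad-Epas1 arrays. Of these, 3 fell and 1 rose, where 9.75% of all genes fell and 6.57% rose, and 8 were lower without overlap, with a median of -0.39. Cdh11 (-1.26, adjusted p = 0.011), a cadherin of synovial fibroblasts, and Pdgfrb (-1.20, adjusted p = 0.0044), a growth factor receptor, fell, and Prg4, which encodes lubricin, rose by 0.55 (adjusted p = 0.028). Single arrays left out ended the calls of Cdh11 (Mock replicate 2 or 3, highest adjusted p = 0.056) and Prg4 (Ad-Epas1 replicate 1, Mock replicate 3 or replicate 2 of either group, highest 0.11). The mean of 6 endothelial markers lay between 6.12 and 6.64, with 2 to 4 of them within the receptor range on each array. Of the 6, 0 passed and 4 were higher without overlap, against 21.3% of all genes. The smallest p were those of Tek (0.67, adjusted p = 0.054), Vwf (0.28, 0.059) and Pecam1 (0.37, 0.12). The part of these markers in the histone results was not tested. In bulk RNA, fewer cells of a type and less RNA per cell cannot be told apart.

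Sequences of gene starts were matched for 43 of the 46 genes (23 clustered, 19 variant and Slbp) in RefSeq's table of GRCm38.p6, as windows of 300 bases from 250 before to 50 after the annotated start. No sequence was matched for H2ax, H2bc21 and H4c14. Windows are printed 5′ to 3′ on the gene's own strand for the 3 clustered genes with the largest falls (H1f5, H2bc12, H2ac15), for the H4 gene H4c12, which fell least among those that passed, for the variant H2az2 and for Slbp. Capitals mark 5 short motifs on either strand: the CCAAT box (CCAAT, or ATTGG on the other strand), the TATA box (TATAAA or TTTATA), the core of the octamer of histone H2B promoters (ATTTGCA), an E2F core (TTCCCGC) and the core of the hypoxia response element (ACGTG). No base in the printed windows belonged to more than 1 motif.
H1f5: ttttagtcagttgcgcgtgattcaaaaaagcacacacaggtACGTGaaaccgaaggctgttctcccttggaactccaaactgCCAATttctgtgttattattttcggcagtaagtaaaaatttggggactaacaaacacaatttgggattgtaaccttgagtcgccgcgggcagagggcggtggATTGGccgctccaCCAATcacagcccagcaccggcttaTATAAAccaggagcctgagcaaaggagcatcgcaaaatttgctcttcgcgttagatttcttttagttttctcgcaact
H2bc12: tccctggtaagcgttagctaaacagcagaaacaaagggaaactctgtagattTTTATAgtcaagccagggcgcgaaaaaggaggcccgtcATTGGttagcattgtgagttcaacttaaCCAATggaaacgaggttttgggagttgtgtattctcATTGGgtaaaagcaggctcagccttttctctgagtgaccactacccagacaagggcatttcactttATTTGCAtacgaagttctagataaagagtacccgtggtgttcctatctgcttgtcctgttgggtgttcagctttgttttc
H2ac15: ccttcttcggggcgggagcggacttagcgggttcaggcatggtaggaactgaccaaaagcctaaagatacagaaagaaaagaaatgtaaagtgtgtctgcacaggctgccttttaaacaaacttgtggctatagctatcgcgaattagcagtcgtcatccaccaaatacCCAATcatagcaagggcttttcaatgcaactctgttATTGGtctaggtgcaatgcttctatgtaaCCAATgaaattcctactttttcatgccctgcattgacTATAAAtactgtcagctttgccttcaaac
H4c12: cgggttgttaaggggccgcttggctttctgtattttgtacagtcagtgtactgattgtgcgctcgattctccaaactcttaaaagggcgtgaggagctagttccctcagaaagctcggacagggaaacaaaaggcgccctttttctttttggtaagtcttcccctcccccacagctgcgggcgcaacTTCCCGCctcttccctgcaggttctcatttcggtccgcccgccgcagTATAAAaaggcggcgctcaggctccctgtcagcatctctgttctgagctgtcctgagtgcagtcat
H2az2: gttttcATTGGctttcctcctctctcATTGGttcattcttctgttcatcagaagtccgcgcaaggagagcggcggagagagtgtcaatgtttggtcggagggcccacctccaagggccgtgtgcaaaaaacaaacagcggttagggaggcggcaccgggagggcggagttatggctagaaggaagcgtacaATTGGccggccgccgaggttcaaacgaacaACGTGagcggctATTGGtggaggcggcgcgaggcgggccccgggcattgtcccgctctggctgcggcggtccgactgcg
Slbp: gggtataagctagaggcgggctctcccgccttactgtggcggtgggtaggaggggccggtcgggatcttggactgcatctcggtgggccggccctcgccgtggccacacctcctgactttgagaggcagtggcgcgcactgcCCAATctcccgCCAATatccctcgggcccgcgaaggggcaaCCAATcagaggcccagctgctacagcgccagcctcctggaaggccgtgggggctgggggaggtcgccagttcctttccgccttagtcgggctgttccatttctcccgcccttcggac
H1f5 is at chr13:21780576-21780875, minus strand; H2bc12 at chr13:22035571-22035870, plus strand; H2ac15 at chr13:21753863-21754162, minus strand; and H4c12 at chr13:21750504-21750803, minus strand. H2az2 is at chr11:6444394-6444693 and Slbp at chr5:33652525-33652824, both on the minus strand.

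In H1f5 the TATA box began 28 bases before the start, with CCAAT boxes 53, 66 and 168 bases before it. H2bc12 held the octamer core 30 bases before its start. Its TTTATA, which reads as a TATA box on the opposite strand, began 198 bases before the start, on the side of the neighbouring gene H2ac12. The windows of this head-to-head pair share 277 bases, and those of H2ac1 and H2bc1 share 220. In H2ac15 the TATAAA lay after the annotated start, within the first bases of the transcript model. H4c12 held the TATA box and the E2F core, and no CCAAT box. H2az2 had 4 CCAAT boxes, the nearest 17 bases before the start, and no TATA box. Slbp had 3, at 67, 97 and 108 bases.

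Across clustered genes, 18 of 23 windows held CCAAT, against 37.4% of all 32851 promoters in the table, and 16 of 23 held TATAAA, against 13.6%. The families differed: every window of clustered H1 (4), H2A (6) and H2B (7) genes held CCAAT, and 1 of 6 H4 windows did. The octamer core was in 5 of 7 H2B windows and 3 of 6 H2A windows, against 4.02% of all promoters. H2ac12 with H2bc12, and H2ac1 with H2bc1, hold the same octamer core in their overlapping windows. It is therefore counted in both families, as are other letters they share. The E2F core was in 2 of 23, both H4, against 4.60%. Variant windows held CCAAT in 11 of 19 cases and TATAAA in 2 of 19. Genes that fell and genes that did not pass had similar shares of both boxes: CCAAT in 10 of 12 against 8 of 11, and TATAAA in 8 of 12 against 8 of 11. ACGTG was in 2 of the 12 clustered genes that fell, in 0 of the 11 others and in 5 of 19 variant windows, 3 of them among the 4 variants with a window that fell, against 19.6% of all promoters. A match is a description of letters in a window, not a measured binding site.

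Clustered histone genes were lower in Ad-Epas1. Of 25, 12 fell, 0 rose and 13 did not pass the test. The share that fell was 48%, beside 9.75% of all genes tested, and 6.57% of all genes rose. Their median log2 difference was -0.52, against 0.05 for all genes, and single genes ranged from -3.06 to 0.22. The arrays of the groups did not overlap, with Ad-Epas1 lower, for 15 of 25, against 18.4% of all genes. For 0 of 25 was every Ad-Epas1 array higher, against 21.3% of all genes. By family, 2 of 4 H1, 4 of 6 H2A, 4 of 8 H2B and 2 of 7 H4 genes fell. No H3 gene has a probe set of its own, and the H3 genes are described with the shared probe sets.

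**Figure D1:**
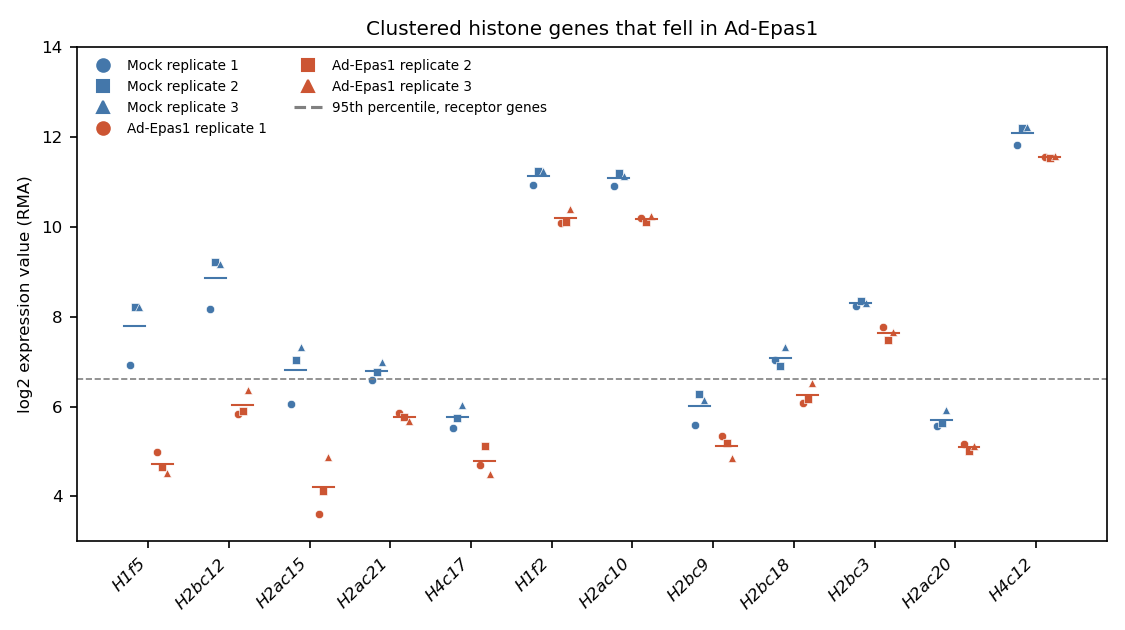
Log2 expression values of the 12 clustered histone genes that fell (x axis, ordered by size of fall) on each of 3 Mock (blue) and 3 Ad-Epas1 (orange) arrays. Symbols mark the replicate, bars the group means and the dashed line the 95th percentile of receptor genes (6.62). Mock and Ad-Epas1 arrays do not overlap for any of the 12, and for H1f5, H2bc12 and H2ac15 Mock replicate 1 sits below the other Mock arrays.

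Linker histones bind the DNA between nucleosomes. H1f5, a linker histone of the chromosome 13 cluster, read 6.93, 8.22 and 8.21 on Mock replicates 1, 2 and 3 and 4.99, 4.66 and 4.52 on the Ad-Epas1 arrays. The groups were far apart, with Mock replicate 1 the lowest of its group and all Ad-Epas1 arrays inside the receptor range. The log2 difference was -3.06 (SE 0.35, adjusted p = 0.0036), or 8.35-fold lower, and because the Ad-Epas1 values lie in that range this fold is not exact. H1f2, another linker histone of the same cluster, read 10.92, 11.23 and 11.24 in Mock and 10.09, 10.10 and 10.40 in Ad-Epas1. All 6 values were well above the receptor range, and the highest Ad-Epas1 array was clearly below the lowest Mock array. It fell by 0.93 (SE 0.13, adjusted p = 0.0059). H1f1 read 4.52, 5.21 and 5.70 against 4.35, 3.63 and 4.15, all within the receptor range, and its difference of -1.10 did not pass (adjusted p = 0.061). H1f3 was at 6.12 in Mock and 5.98 in Ad-Epas1, with overlapping arrays and an adjusted p of 0.30.

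H2A is a core histone that pairs with H2B at the faces of the nucleosome. H2ac15 read 6.06, 7.04 and 7.32 in Mock and 3.60, 4.13 and 4.87 in Ad-Epas1. The groups were separate, but Mock replicate 1 and all Ad-Epas1 arrays lay in the receptor range. It fell by 2.61 (SE 0.41, adjusted p = 0.0096), which is likewise not exact, so the order of H1f5, H2bc12 and H2ac15 is uncertain. H2ac10 read 10.91, 11.21 and 11.14 against 10.20, 10.10 and 10.24, tight in both groups and well above the receptor range. It fell by 0.91 (SE 0.10, adjusted p = 0.0029). H2ac21, one of 5 clustered genes on chromosome 3, read 6.59, 6.77 and 6.99 against 5.85, 5.76 and 5.69 and fell by 1.01 (SE 0.11, adjusted p = 0.0032). Mock replicate 1 and all Ad-Epas1 arrays lay in the receptor range here too, so this size is not exact. The dimmer probe set of H2ac21, at 5.07 in Mock, differed by 0.07 (adjusted p = 0.75), and averaging both gave -0.47 (adjusted p = 0.017). Next to it on chromosome 3, H2ac20 went from 5.70 ± 0.19 to 5.11 ± 0.08 (SD, n = 3), a fall of 0.60 inside the receptor range (adjusted p = 0.015). H2ac12 read between 3.19 and 3.38 on all arrays. H2ac1, the testis form of H2A, was at 7.27 in Mock and 7.35 in Ad-Epas1 (adjusted p = 0.46).

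H2B is the partner of H2A. H2bc12 read 8.18, 9.23 and 9.16 in Mock and 5.83, 5.91 and 6.36 in Ad-Epas1, with Mock replicate 1 again the lowest of its group. The groups were far apart, and the Ad-Epas1 arrays lay in the receptor range. It fell by 2.82 (SE 0.30, adjusted p = 0.0027), a size that is not exact because of those low values. H2bc3 read 8.24, 8.34 and 8.30 against 7.76, 7.47 and 7.65, the smallest spread in Mock of the H2B genes that fell. It fell by 0.66 (SE 0.09, adjusted p = 0.0058). H2bc18, on chromosome 3, read 7.03, 6.91 and 7.32 against 6.08, 6.18 and 6.52 and fell by 0.83 (SE 0.15, adjusted p = 0.015). All Ad-Epas1 arrays of H2bc18 lay in the receptor range, so this size is not exact either. H2bc9 went from 6.0 ± 0.37 to 5.13 ± 0.25 (SD, n = 3), inside the receptor range (adjusted p = 0.032). H2bc14, with a difference of -0.32, did not pass (adjusted p = 0.065), although its groups did not overlap. H2bc1, the testis form of H2B, H2bc21 and H2bc22 had Mock means of 3.16, 6.07 and 5.62 and differences of 0.02, 0.07 and 0.22, with overlapping arrays.

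H4 forms the centre of the nucleosome with H3, and its genes encode nearly one protein. H4c12 read 11.81, 12.19 and 12.22 in Mock and 11.55, 11.52 and 11.58 in Ad-Epas1. The Ad-Epas1 arrays were between 11.52 and 11.58, and Mock replicate 1 was the closest of its group to them. It fell by 0.52 (SE 0.12, adjusted p = 0.028). H4c17 read 5.52, 5.75 and 6.04 against 4.71, 5.13 and 4.50, inside the receptor range, and fell by 0.99 (SE 0.19, adjusted p = 0.018). H4c9 was at 6.54 and 6.30, with separate groups and an adjusted p of 0.068. H4c14, H4c8, H4c2 and H4c1 had differences of -0.07, -0.03, -0.03 and 0.06, and their arrays overlapped.

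Many of these genes lay low. Of the 12 clustered genes that fell, 3 (H4c17, H2bc9 and H2ac20) had both group means within the receptor range, and 5 had the Ad-Epas1 mean there and the Mock mean above it. Of the 13 that did not pass, 11 had both means within that range, so their results say little about expressed histone genes. The others were H4c14 and H2ac1. Some shared probe sets well above that range, given below, also did not pass. Among the 11090 genes above the median level of the array, 6 clustered genes were tested and 5 of them fell, with a median of -0.79, while 19.7% of all genes there fell. That level is a mean over all 6 arrays, and H2bc12 passed it through its Mock values.

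**Figure D2:**
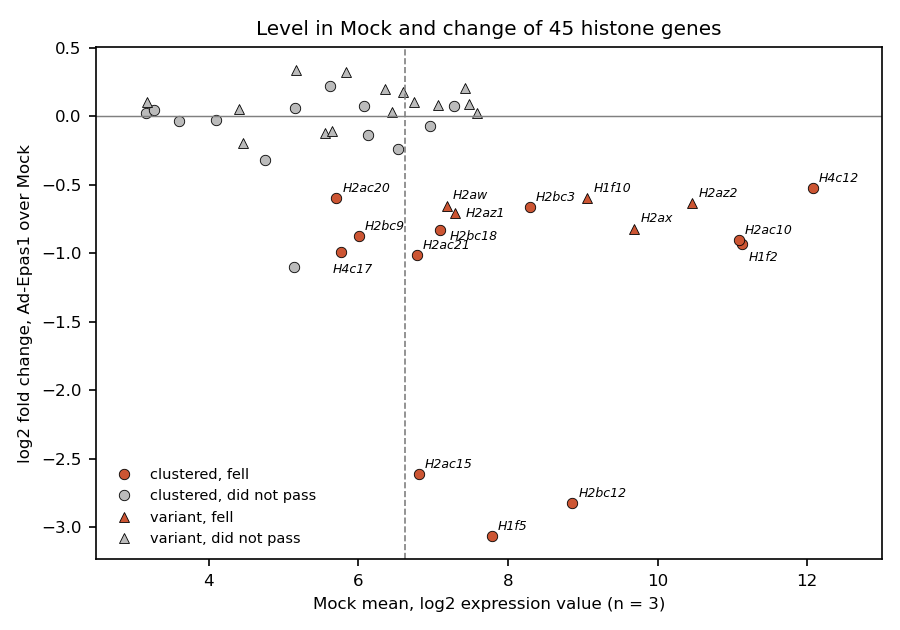
Log2 fold change of 45 histone genes (y axis) against their mean log2 expression value in Mock (x axis, n = 3), circles for clustered and triangles for variant genes, orange where the gene fell and grey where it did not pass the test. The dashed line is the 95th percentile of receptor genes (6.62). Of 13 clustered genes that did not pass, 11 lie left of it.

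RefSeq's gene order places several of these genes side by side. On chromosome 13, H4c12 (-0.52) and H2ac15 (-2.61) are neighbours, and H2bc15, which was not measured alone, lies between H2ac15 and H1f5 (-3.06). H2bc12 (-2.82) stands between H2ac12 (0.05, at 3.3 in both groups) and H4c9 (-0.24), both within the receptor range, where a small difference does not show a small change. On chromosome 3, H2ac21 (-1.01), H2ac20 (-0.60) and H2bc21 (0.07, also within that range) are consecutive. Counted by cluster, 9 of 20 genes on chromosome 13 and 3 of 5 on chromosome 3 fell, while 9.75% of all genes did. The 2 clusters were not compared by a test.

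With each of the 6 arrays left out in turn, the 12 genes stayed lower in Ad-Epas1. H1f5, H2bc12, H2ac15, H2ac21, H1f2, H2ac10 and H2bc3 stayed under 0.05 each time, with H2ac15 reaching an adjusted p of 0.050 when rounded. The other 5 lost the call without at least 1 array: H4c17 without Ad-Epas1 replicate 1 or Mock replicate 2 or 3 (highest adjusted p = 0.074), H2bc9 and H4c12 when any array other than Mock replicate 1 or Ad-Epas1 replicate 3 was left out (0.12 and 0.11), H2bc18 without Ad-Epas1 replicate 2 or Mock replicate 3 (0.062), and H2ac20 without replicate 2 of either group (0.062). Without Ad-Epas1 replicate 3, the array low in macrophage markers, 13 clustered genes fell while 14% of all genes did, and without both that array and Mock replicate 1, 14 fell while 15.2% of all genes did.

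Many histone genes are so alike that a probe set reads several of them, and these probe sets have several symbols. They were added after the data had been seen, fitted with all 25335 probe sets that have a symbol, and described by family only, since reads of single genes cannot be separated. Among the latter, 8.81% fell and 6.27% rose. Of 33 clustered probe sets with distinct values (36 before identical ones were merged), 13 fell, 0 rose and 20 did not pass, with a median of -0.37. H2A had 5 of 9 that fell, H2B 3 of 7, H3 4 of 12 and H4 1 of 5. For H3, the core partner of H4, the 4 falls were 0.93, 0.83, 0.62 and 0.59. The H3 probe set with the highest mean went from 10.96 to 10.34 (SE of the difference 0.09, adjusted p = 0.0080), and those with the 2 larger falls had Mock means of 4.63 and 3.99, within the receptor range. A probe set of H1f4 and H2B genes differed by -0.42 (adjusted p = 0.070). The same likeness may let probes of single-symbol genes take up copies of their neighbours, so values of single clustered genes are uncertain.

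Of 20 variant histone genes, 5 fell and 0 rose, and the median difference was 0.04. The share that fell was 25%, beside 9.75% of all genes. The groups did not overlap for 5 genes with Ad-Epas1 lower, against 18.4% of all genes, and for 4 with Ad-Epas1 higher, against 21.3%. The 5 that fell, H2ax, H2az1, H2aw, H2az2 and H1f10, had Mock means above the receptor range, and for H2az1 (6.59) and H2aw (6.53) the Ad-Epas1 mean lay inside it. The difference between clustered and variant genes was not tested.

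**Figure D3:**
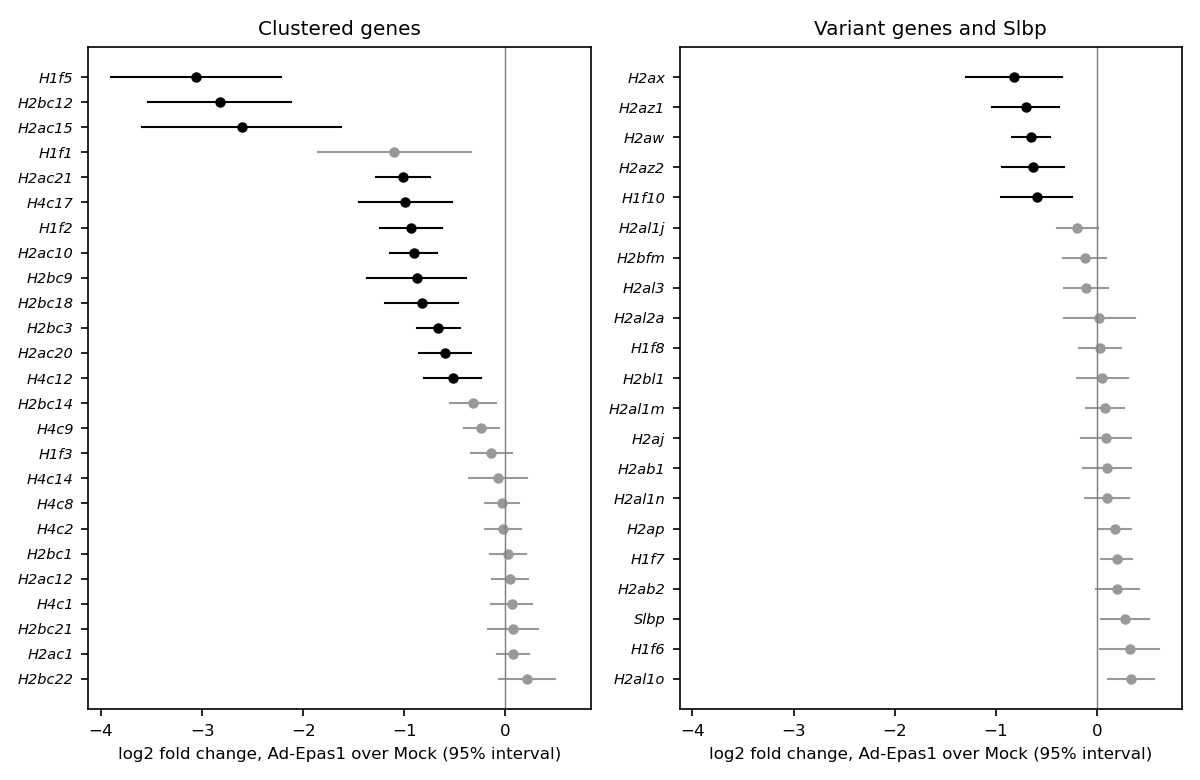
Log2 fold change of each gene in Ad-Epas1 over Mock (dot) with its 95% interval from limma (line, not adjusted for the number of genes), for 25 clustered genes at left and 20 variant genes and Slbp at right. Black marks genes that fell and grey those that did not pass. Clustered genes spread from -3.06 to 0.22 and variants from -0.82 to 0.33.

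H2AX is the variant phosphorylated at DNA breaks, and its gene makes both a stem-loop and a polyadenylated message. H2ax read 9.22, 10.004 and 9.84 in Mock and 8.78, 9.0 and 8.82 in Ad-Epas1. The groups did not overlap, and Mock replicate 1 lay nearest to the Ad-Epas1 arrays. It fell by 0.82 (SE 0.20, adjusted p = 0.037). H2A.Z, which marks promoters and enhancers, has a pair of genes. H2az1 read 7.49, 7.05 and 7.33 against 6.62, 6.75 and 6.39 and fell by 0.71 (SE 0.14, adjusted p = 0.019). H2az2 read 10.25, 10.52 and 10.63 against 9.71, 9.78 and 10.01 and fell by 0.63 (SE 0.13, adjusted p = 0.020). Both H2A.Z genes were lower on every Ad-Epas1 array than on any Mock array.

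H2aw, an H2A gene on chromosome 11 outside the main clusters, stands with the variants by its symbol alone, and an alternative sorting counted it as clustered. It read 7.12, 7.15 and 7.26 in Mock and 6.60, 6.41 and 6.57 in Ad-Epas1. Its groups were narrow and apart, and it fell by 0.65 (SE 0.08, adjusted p = 0.0044). H1f10, a linker histone on chromosome 6, read 8.82, 9.21 and 9.15 against 8.57, 8.22 and 8.60 and fell by 0.60 (SE 0.15, adjusted p = 0.037). Here the gap between the groups was narrow. H2aj, an H2A variant reported in senescent human cells, read 7.63, 7.34 and 7.49 against 7.43, 7.60 and 7.69, with overlapping groups, and differed by 0.09 (95% interval -0.16 to 0.34, adjusted p = 0.59).

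**Figure D4:**
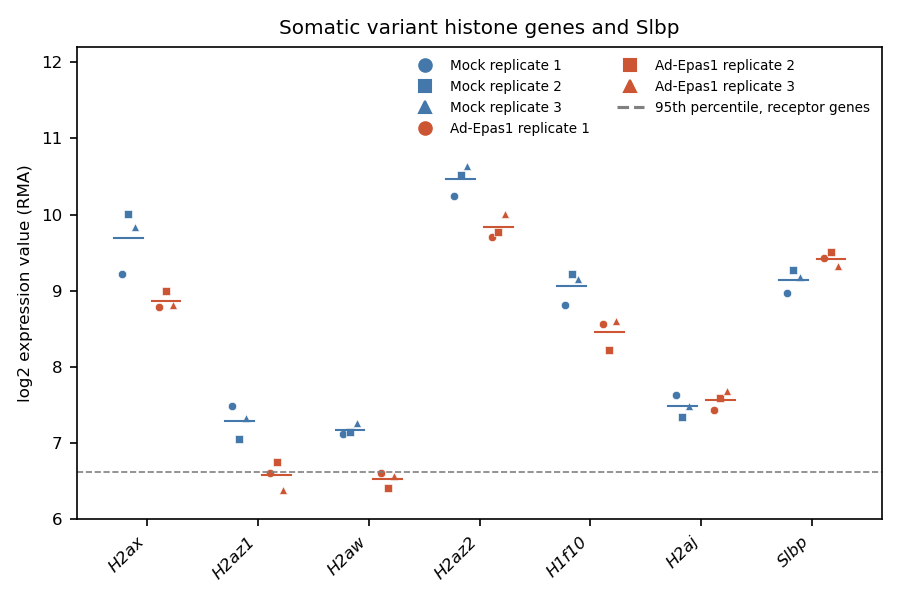
Log2 expression values of 6 somatic genes sorted as variants by symbol, and of Slbp, on each of 3 Mock (blue) and 3 Ad-Epas1 (orange) arrays. Group means are bars, and the 95th percentile of receptor genes (6.62) is dashed. H2ax, H2az1, H2aw, H2az2 and H1f10 lie lower in Ad-Epas1 without overlap, H2aj overlaps, and Slbp lies higher without overlap but did not pass the test.

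Leaving out single arrays, H2aw alone among the 5 kept the call each time. The only call kept throughout thus belongs to a gene whose class depends on the sorting. H2ax, H2az2 and H1f10 lost it when any array other than Mock replicate 1 or Ad-Epas1 replicate 3 was left out (highest adjusted p = 0.14, 0.086 and 0.14), and H2az1 without Mock replicate 1, Ad-Epas1 replicate 1 or Mock replicate 3 (highest 0.083). The count of variants that fell was 1 without Ad-Epas1 replicate 1 or Mock replicate 3, where 6.1% and 3.44% of all genes fell. It was 2 without Mock replicate 2 or Ad-Epas1 replicate 2 (3.44% and 4.17% of all genes), and 5 without Ad-Epas1 replicate 3 (14%). H1f10 and H2ax were not called after another quantile step.

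The 14 other variants are mostly germ line forms. Those of the testis include H1f6 and H1f7, linker histones of sperm development, and the short H2A variants H2ab1, H2ab2, H2al1j, H2al1m, H2al1n, H2al1o, H2al2a and H2al3, most of them X-linked; H1f8 is the linker histone of the oocyte. H2ap, H2bfm and H2bl1 complete the set. Their differences ran from -0.19 for H2al1j to 0.33 for H2al1o. H2al1o read 5.35, 5.05 and 5.11 in Mock and 5.46, 5.58 and 5.47 in Ad-Epas1, inside the receptor range, and did not pass (adjusted p = 0.058). H1f6 (0.32), H1f7 (0.19) and H2ap (0.18) also had every Ad-Epas1 array higher, with adjusted p between 0.085 and 0.125. Of the 15 variants that did not pass, 9 had both means within the receptor range.

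The replacement variant H3.3, which is deposited independently of DNA copying, is encoded by H3f3a and H3f3b and was read only by shared probe sets. Of 7, 1 rose (0.27, SE 0.07, adjusted p = 0.041), 0 fell, and the differences ran from -0.05 to 0.27. The probe set with the highest mean stood at 12.11 in Mock and 12.32 in Ad-Epas1 (adjusted p = 0.091). One of 11 shared probe sets of variant H2A genes, that of the testis H2ab genes, also rose, by 0.60 (adjusted p = 0.0027). The single-symbol probe set used for H2ab1 differed by 0.10 (adjusted p = 0.52). A few related genes lie outside the naming rule. Cenpa, the centromeric H3, read 8.96, 9.40 and 9.27 in Mock and 7.94, 7.90 and 7.74 in Ad-Epas1 and fell by 1.35 (SE 0.12, adjusted p = 0.0020). The macroH2A genes Macroh2a1 (0.07, adjusted p = 0.56) and Macroh2a2 (-0.38, adjusted p = 0.16) did not pass.

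Slbp did not fall with the clustered genes. It read 8.97, 9.27 and 9.19 in Mock and 9.43, 9.51 and 9.33 in Ad-Epas1, with every Ad-Epas1 array above every Mock array. The difference of 0.28 (SE 0.10, 95% interval 0.04 to 0.52 before adjustment) did not pass (adjusted p = 0.10), and with array weights it did (adjusted p = 0.031). These are RNA levels, and the amount of SLBP protein was not measured.

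Of the genes that transcribe histone genes or process their 3′ ends, 29 of 31 were measured: 1 fell, 2 rose and 26 did not pass, with a median of 0.03. Beside the 9.75% of all genes that fell and the 6.57% that rose, these are few falls and a share of rises near that of all genes. Cpsf3, the endonuclease that cuts messages at the 3′ end, fell by 0.34 (adjusted p = 0.028). Tent4b, a poly(A) polymerase of RNA decay, differed by 0.41 (adjusted p = 0.036), but by 0.18 (adjusted p = 0.16) as the mean of its probe sets, and Cdk9, the elongation kinase, rose by 0.26 (adjusted p = 0.042). Npat, the coactivator of clustered histone genes, went from 9.49 to 9.37 (adjusted p = 0.34). Casp8ap2, of the same nuclear bodies, and Lsm10 and Lsm11, of the U7 particle that guides the cut, had differences of -0.07, -0.04 and -0.15. None of these 4 passed (adjusted p between 0.29 and 0.74). Cpsf3, Cdk9 and Tent4b each kept the call with 1 array left out only where that array was Ad-Epas1 replicate 3 (highest adjusted p otherwise 0.11, 0.15 and 0.13). Without Ad-Epas1 replicate 3, 1 gene of the list fell and 6 rose, while 14% and 10.3% of all genes did.

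Histone chaperones carry new histones to DNA. The list counted here is of chaperone and deposition genes, wider than chaperones alone, and 31 were measured. Of these, 7 fell, 3 rose and 21 did not pass, where 9.75% of all genes fell and 6.57% rose. Their median was -0.17. Among the 7, Mcm2 (-0.78, adjusted p = 0.0068) was counted here and not with the S phase genes. Asf1b, which carries H3 and H4 in dividing cells, read 10.01, 10.26 and 10.24 in Mock and 8.20, 8.32 and 8.40 in Ad-Epas1, with the groups far apart. It fell by 1.86 (SE 0.10, adjusted p = 3.9e-04). Chaf1a, a subunit of the replication-coupled factor CAF-1, fell by 1.20 (adjusted p = 9.3e-04), and Mms22l, which acts on replication forks, by 1.08 (adjusted p = 0.0066). Chaf1b (-0.32, adjusted p = 0.090), Nasp (-0.20) and the H3.3 chaperone genes Hira (0.13), Daxx (0.29) and Atrx (-0.17) did not pass (adjusted p between 0.058 and 0.37 for the last 4). The 3 that rose, named after their values were seen, were Nap1l4 (0.45), Ubn1 (0.45) and Supt6 (0.29).

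S phase genes fell along with the clustered histone genes. Of 28 measured, 21 fell, 0 rose and 7 did not pass, Slbp among them, with a median of -0.75, while 9.75% of all genes fell. Mcm5, a subunit of the replicative helicase, fell by 1.58 (adjusted p = 4.0e-04) and Tk1, thymidine kinase, by 1.29 (adjusted p = 5.3e-04). Ccna2, cyclin A, read 9.81, 10.52 and 10.45 against 6.54, 6.54 and 7.37 and fell by 3.44 (SE 0.28, adjusted p = 0.0014). The share of cells in S phase was not measured, and the part of this list in the histone result was not tested. Without Ad-Epas1 replicate 3, 22 of the 28 fell, and 14% of all genes.

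Array by array, the median difference from the Mock mean over the 25 clustered genes was -0.07, 0.04 and 0.10 on the Mock arrays and -0.52, -0.55 and -0.50 on the Ad-Epas1 arrays. The S phase list gave -0.18, 0.08 and 0.10 against -0.85, -0.73 and -0.72. On Mock replicate 1 both lists were thus the lowest of their group. The median over the 20 variant genes stayed between -0.04 and 0.06 on all arrays. Most of them are germ line forms. Of the 20, 5 fell, and 9 of the 15 others had both means within the receptor range. A median near 0 thus does not mean that no variant changed. The macrophage marker median was -3.99 on Ad-Epas1 replicate 3 and between -0.08 and 0.16 on the other arrays. The fibroblast marker median was -0.46, -0.40 and -0.11 on the Ad-Epas1 arrays and between -0.02 and 0.04 on Mock.

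**Figure D5:**
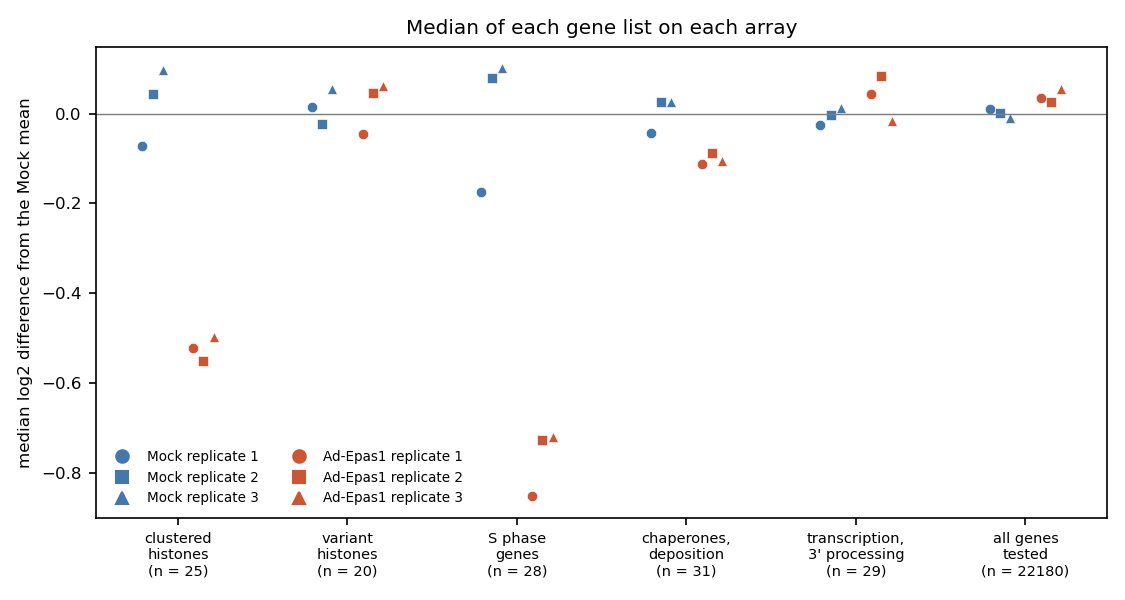
Median log2 difference from the Mock mean over the genes of each list (x axis, with the number of genes) on each Mock (blue) and Ad-Epas1 (orange) array. Medians of clustered histone and S phase genes lie lower on all 3 Ad-Epas1 arrays, while those of variant histones, 3′ processing genes and all genes tested lie near 0. The variant list is mostly germ line forms, and 5 of its 20 genes fell.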

How the data were processed

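The deposited values are log2 expression levels of probe sets; the submitters' processing notes name RMA and Affymetrix Expression Console 1.3.1. RMA corrects background, sets all arrays to one distribution and summarises probes, so a shift common to most genes is removed and large folds are compressed. The label protocol names 300 ng of total RNA and a whole-transcript kit; how the cDNA was primed and which genome build the probe sets follow are not stated there.

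Of 41345 probe sets, 23521 had 1 gene symbol, 1814 several and 16010 none. The brightest probe set per gene left 22180 genes. All 46 genes were found by Entrez ID in RefSeq's GRCm38.p6 table, which changed 0 symbols, and 2 pseudogene probe sets were left out. limma 3.58.1 (lmFit, eBayes) in R 4.3.3 compared 3 Ad-Epas1 with 3 Mock arrays, grouped by title, with Benjamini-Hochberg adjustment over all genes, no filter on level and a threshold of 0.05. The fit was tested on simulated data. The number of arrays limits the precision. Exact permutation of 6 arrays reaches p = 0.1 at best.

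The members and gene lists were chosen with earlier results of these data known. Named genes were, by rule, the 3 with the smallest p and the brightest of each clustered family, a set of somatic variants, Slbp and the 3 with the smallest p of each list, and the other members are named to account for all. Same-numbered arrays had correlations of 0.34, -0.19 and 0.21 in their deviations from the group means, so the numbers were not taken as pairs. Alternatives were a replicate block, each array left out, another quantile step, centring, only genes above the median level, a trended robust prior, array weights, probe sets averaged or tested separately, and another sorting of H2ac1, H2bc1 and H2aw. The shared probe sets and the lists without certain arrays were added after seeing the data.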

Additional observations from a re-analysis of the deposited data

How the results depend on the processing

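Under every alternative run, 0 clustered genes rose and every clustered gene that fell and was still tested stayed lower in Ad-Epas1. The count of clustered genes called was 12, between 8 and 13 with 1 array left out, 11 with the replicate block and 5 of the 6 tested among genes above the median level. Another quantile step kept the 12 and added falls of H2bc14 and H4c9, where 7.8% of all genes fell. Array weights kept the 12 and added falls of H1f1, H2bc14 and H4c9, where 18.2% of all genes fell. The clustered median of -0.52 lay between -0.65 and -0.45 with 1 array left out, and became -0.67 with Mock replicate 1 and Ad-Epas1 replicate 3 both left out, -0.79 above the median level, -0.62 with array weights and -0.62 with H2ac1 and H2bc1 counted as variants and H2aw as clustered. Variants called were 5, between 1 and 5 with 1 array left out (1 of the 5 without Mock replicate 1 being a rise of H2al1o), 4 with the replicate block, 3 after another quantile step, 3 above the median level, where the median was -0.29, and 9 (6 that fell, 3 that rose) with array weights. Slbp passed with array weights (0.28, adjusted p = 0.031). Hira, Daxx and Chaf1b also passed with array weights. Daxx passed too after centring, after another quantile step and among genes above the median level. Chaf1b passed too without Mock replicate 1, alone or together with Ad-Epas1 replicate 3. Over all genes 2162 fell and 1458 rose, 1928 and 1732 after centring each array, 1731 and 1913 after another quantile step, 2180 and 1378 above the median level, 4031 and 3760 with array weights, 1968 and 1140 with the replicate block, and from 762 to 3100 and 418 to 2290 with 1 array left out. The block cost H2bc9, H1f10, Cpsf3, Cdk9 and Tent4b their calls; the replicate numbers were not shown to pair the arrays. The list of transcription and 3′ processing genes had 6 calls with both of those arrays left out. The cause of these shifts was not tested, except that fewer genes entered above the median level.

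Directions turned only among genes that did not pass. After another quantile step the differences were 0.022 for Casp8ap2, 0.0161 for Lsm10, -0.00628 for H2bc1, -0.0148 for H4c1, -0.0332 for H1f8 and -0.0168 for H2bl1. With array weights they were 0.0156 for H4c2, -0.0121 for H2bc1, -0.024 for H2al2a, -0.0070 for H1f8 and -0.00903 for H2bl1. With 1 array, or both arrays named above, left out, the ranges were -0.0694 to 0.00524 for Lsm10, -0.17 to 0.00176 for H4c14, -0.0755 to 0.0273 for H4c2, -0.023 to 0.0595 for H2bc1, -0.00115 to 0.15 for H4c1, -0.00562 to 0.19 for H2bc21, -0.15 to 0.18 for H2al2a, -0.0448 to 0.077 for H1f8 and -0.0585 to 0.13 for H2bl1.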
